A study of Mus musculus with 6 samples.

Results

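The genes described here are 10 transcripts that mark macrophages of the inflamed artery wall: Lyz2, Cd68, Laptm5, Trem2, Ms4a7, Adgre1, Lgals3, Gpnmb, Fabp5 and Plac8. They were taken by name from a table of 41064 genes, each name matched 1 gene, and all 10 held enough counts to be tested. RNA was sequenced from aortas of mice given angiotensin II (Ang II), a vasoconstrictor peptide that provokes vascular remodelling and draws leukocytes into the vessel wall. Wild type (WT) mice gave 3 libraries, and another 3 carry the knockout label for Josd2, whose product removes ubiquitin from proteins. Both groups received Ang II, with no untreated library among those used, so every difference is between the labelled genotypes under treatment. The series title links Josd2 to the stability of SMAD7, an inhibitor of TGF-beta signalling. Strain, age, sex, dose, duration, the knockout allele and whether the deletion reaches every cell are not stated in the labels. The design text speaks of 3 mice in each group.

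Macrophages of the arterial wall have at least a pair of origins. Resident cells are seeded early and live in the adventitia, whereas recruited cells arrive from blood as monocytes that express the chemokine receptor CCR2 and then differentiate. Cells that take up lipid or debris switch on a lipid-associated programme led by the receptor TREM2, with the lysosomal glycoprotein GPNMB, the fatty acid chaperone FABP5 and the lectin galectin-3. Whole aorta is mostly smooth muscle, so these transcripts come from a minority of its cells. In such bulk RNA, fewer macrophages and less RNA per macrophage cannot be told apart.

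Of the 10 genes, 8 were lower in the labelled knockouts (edgeR quasi-likelihood test, Benjamini-Hochberg adjusted p under 0.05 over 20132 genes), none was higher and 2 did not pass. Among all tested genes 11.5% were called lower and 13.2% higher. The 8 were Ms4a7, Trem2, Lyz2, Cd68, Laptm5, Plac8, Adgre1 and Lgals3, with fold reductions from 3.15 down to 1.58. Gpnmb and Fabp5 were those that did not pass, while Trem2 and Lgals3, of the same lipid-associated programme, were among the 8. The median log2 fold change, labelled knockout over WT, was -1.10 over the 10 genes and -0.00 over all tested genes. In each of the same 8 genes, the highest labelled knockout library lay under the lowest WT library, an arrangement found in 19.8% of all tested genes. Fabp5 was the reverse case, with every labelled knockout library above every WT library, and the share of all tested genes arranged that way was not counted.

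Total counts were 63612353 to 75886761 per library and overlapped between the groups, whereas the composition of the libraries did not. Mitochondrial transcripts took 36.2% of the counts in WT libraries and 23.8% to 23.9% in the labelled knockouts. CPM (counts scaled to library size) were computed with the TMM method, whose factors were 0.867 to 0.868 in WT and 1.15 in the labelled knockouts. Dividing by library totals instead moves the log2 fold change of the median gene up by 0.41, and the share of called genes that are higher goes from 53.4% to 92.5%. With library totals, 3.81% of all tested genes were called lower and 46.8% higher, and the counts given by library totals are to be read against those shares. Within a group, the variance between a pair of libraries was 7.95 to 11.1 times that of Poisson counting, with no growth from the bin that starts at 40 counts to the one that starts at 20000. Whether libraries of a group came from separate mice was not tested, and p-values measure only the spread between these libraries, which may be technical. As a share of all counts, the 10 genes made up 0.0537% to 0.0551% in WT and 0.0328% to 0.0338% in the labelled knockouts. Josd2 itself measured 30.1 ± 0.84 CPM (SD, n = 3) in WT and 21.0 ± 0.95 in the labelled knockouts. The libraries labelled knockout thus kept 69.8% of the WT level (log2 fold change -0.52, SE 0.07, edgeR adjusted p = 0.000244), and with library totals the difference was -0.11 (edgeR adjusted p = 0.231). Which part of the gene was deleted is not stated, so reads outside it may remain, and the labels are used as given.

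Promoter sequences are shown for 4 of the genes, chosen by where their windows lie and not by their change. Of these, Trem2, Cd68 and Ms4a7 fell and Gpnmb did not pass. RefSeq promoter windows on GRCm38.p6, each the 250 bases before an annotated transcription start, were found for 8 of the 10 genes. The windows of Trem2, Cd68 and Gpnmb and 1 of the Ms4a7 windows lie outside any annotated transcript of the gene and are printed 5′ to 3′ on the strand of the gene, with matches to the searched motifs in capitals. The windows are Trem2 at chr17:48346151-48346400 on the plus strand, Cd68 at chr11:69666171-69666420 on the minus strand, Ms4a7 at chr19:11336147-11336396 on the minus strand and Gpnmb at chr6:49036268-49036517 on the plus strand.
Trem2: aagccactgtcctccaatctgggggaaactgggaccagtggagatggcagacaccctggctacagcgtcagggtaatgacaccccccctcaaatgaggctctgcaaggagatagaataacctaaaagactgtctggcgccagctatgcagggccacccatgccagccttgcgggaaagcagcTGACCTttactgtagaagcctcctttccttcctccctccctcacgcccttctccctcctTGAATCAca
Cd68: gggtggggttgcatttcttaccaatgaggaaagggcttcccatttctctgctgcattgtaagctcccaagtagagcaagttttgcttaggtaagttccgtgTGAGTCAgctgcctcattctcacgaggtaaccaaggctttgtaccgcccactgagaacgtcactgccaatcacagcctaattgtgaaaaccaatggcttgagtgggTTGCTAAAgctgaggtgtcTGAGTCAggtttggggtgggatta
Ms4a7: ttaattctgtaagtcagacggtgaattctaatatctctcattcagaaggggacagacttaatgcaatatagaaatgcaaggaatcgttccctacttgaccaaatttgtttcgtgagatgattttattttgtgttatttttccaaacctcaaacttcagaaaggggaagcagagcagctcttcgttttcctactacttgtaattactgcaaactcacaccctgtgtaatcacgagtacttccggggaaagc
Gpnmb: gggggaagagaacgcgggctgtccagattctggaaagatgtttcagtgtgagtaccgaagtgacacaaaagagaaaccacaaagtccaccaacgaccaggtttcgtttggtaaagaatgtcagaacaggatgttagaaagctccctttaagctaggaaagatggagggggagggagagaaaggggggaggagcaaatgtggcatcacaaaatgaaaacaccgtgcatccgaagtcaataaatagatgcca
The motifs, searched on both strands, were GAGGAAGT for the factor PU.1, 3 E-box words read by MITF and TFE factors (the palindrome CACGTG, its variant with the letters TCATGTG and the further variant with the letters TCACATG), for the AP-1 dimer the word TGANTCA, TTGCNNAA for the C/EBP family, AGGTCA as a nuclear receptor binding word, and the TATA box word TATAAA. The pair of E-box variants are not reverse complements of each other, but their matches can overlap on opposite strands. The capitals in Cd68 mark a pair of AP-1 words, 149 and 24 bases before the start, and a C/EBP word 43 bases before it. In Trem2 they mark an AP-1 word 9 bases before the start and the nuclear receptor word on the opposite strand at 68 bases. The printed windows of Ms4a7 and Gpnmb held none of the searched words. Among the windows not printed, the other window of Ms4a7 held an AP-1 word 81 bases before its start, a window of Plac8 held a C/EBP word at 12 bases and that of Laptm5 held TATAAA at 218 bases. Over 32851 promoter windows of the same length, AP-1 words were found in 6.75%, C/EBP words in 9.56%, the nuclear receptor word in 14.0% and TATAAA in 12.4%. The PU.1 word, present in 2.44% of all windows, and the E-box words, present in 6.02%, 3.25% and 3.50%, were in none of the windows of these genes. The matches are letters in a window and no binding was measured.

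Lyz2 encodes lysozyme M, an antibacterial enzyme of macrophages, monocytes and neutrophils, and lies at chr10:117277331-117282321 on the minus strand. It measured 391, 405 and 406 CPM in WT libraries 1, 2 and 3 and 156, 155 and 156 CPM in labelled knockout libraries 1, 2 and 3. The groups were far apart and the labelled knockouts nearly identical to each other. Lyz2 was 2.57-fold lower (log2 fold change -1.36, SE 0.03, 95% interval -1.42 to -1.31, edgeR adjusted p = 1.51e-11). Per transcript length it was also the most abundant of the 10, at 224 ± 4.6 FPKM (fragments scaled to transcript length and library total, as deposited by the authors) in WT and 115 ± 0.5 in the labelled knockouts (SD, n = 3). Since FPKM are scaled to totals that include mitochondrial transcripts, log2 differences in FPKM lie above those in TMM-scaled CPM, so reductions look smaller and increases larger.

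Cd68 encodes macrosialin, a glycoprotein of the late endosome and lysosome, and lies at chr11:69664213-69666153 on the minus strand. Its levels were 19.0, 17.9 and 17.8 CPM in WT and 6.06, 6.87 and 8.65 CPM in the labelled knockouts. All labelled knockout libraries were lower, with labelled knockout library 3 nearest to WT. The change was 2.53-fold, a log2 fold change of -1.34 with an SE of 0.13 (edgeR adjusted p = 2.68e-05), from 10.6 ± 0.4 to 5.57 ± 1.0 FPKM (SD, n = 3).

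Laptm5, a lysosomal membrane protein of haematopoietic cells that limits surface receptor levels, lies at chr4:130913125-130936141 on the plus strand. WT libraries held 49.3, 52.3 and 47.1 CPM and the labelled knockouts 20.7, 22.3 and 20.5 CPM. The spread within either group was small against the gap. Its fall was 2.34-fold, a log2 fold change of -1.23 with an SE of 0.07 (edgeR adjusted p = 1.8e-07), from 9.61 ± 0.49 to 5.45 ± 0.25 FPKM (SD, n = 3).

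Trem2, the lipid-sensing receptor that signals through the adaptor Tyrobp, lies at chr17:48346401-48354147 on the plus strand. It measured 12.2, 12.7 and 10.8 CPM in WT and 4.63, 4.32 and 3.82 CPM in the labelled knockouts. The highest labelled knockout value was well under the lowest WT value. Trem2 was 2.79-fold lower (log2 fold change -1.48, SE 0.14, 95% interval -1.79 to -1.18, edgeR adjusted p = 1.56e-05), and per length it was the least abundant of the 10 in both groups, at 1.76 ± 0.15 and 0.84 ± 0.08 FPKM (SD, n = 3).

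Ms4a7 encodes a membrane-spanning protein used as a marker of monocyte-derived macrophages, for instance to set them apart from microglia, and lies at chr19:11321039-11336144 on the minus strand. It gave 12.8, 16.0 and 13.6 CPM in WT and 4.49, 5.27 and 3.71 CPM in the labelled knockouts. The groups did not approach each other, although WT library 2 stood above the other WT libraries. With 3.15-fold it had the largest reduction of the 10 (log2 fold change -1.66, SE 0.16, 95% interval -2.0 to -1.31, edgeR adjusted p = 1.76e-05). That interval overlaps those of Trem2, Lyz2, Cd68, Laptm5 and Plac8, and differences between genes were not tested.

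Adgre1 encodes F4/80, an adhesion receptor used as the standard surface marker of mouse macrophages, and lies at chr17:57358691-57483527 on the plus strand. Values were 23.0, 24.7 and 26.3 CPM in WT and 17.2, 15.1 and 12.3 CPM in the labelled knockouts. The groups were separate, with a wider spread in the labelled knockouts. The reduction was 1.66-fold, or -0.73 on the log2 scale with an SE of 0.12 (edgeR adjusted p = 0.000918). It was lost with limma on log2(FPKM + 1), where the difference was -0.27 (limma adjusted p = 0.0639).

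Lgals3, encoding galectin-3, a lectin of macrophages that is also made by fibroblasts and epithelia, lies at chr14:47367751-47386160 on the plus strand. It measured 64.9, 63.2 and 62.0 CPM in WT and 41.6, 40.6 and 37.9 CPM in the labelled knockouts. Libraries of a group were close together and the groups did not overlap. Its reduction of 1.58-fold was the smallest among the genes that fell (log2 fold change -0.66, SE 0.05, 95% interval -0.78 to -0.54, edgeR adjusted p = 5.32e-06). With library totals Lgals3 was lower by less, at -0.25 (edgeR adjusted p = 0.00247).

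Gpnmb encodes a glycoprotein of lysosome-related organelles in lipid-laden macrophages, osteoclasts and melanocytes, and lies at chr6:49036546-49070929 on the plus strand. It measured 22.6, 14.8 and 18.0 CPM in WT and 18.2, 18.3 and 15.3 CPM in the labelled knockouts. The labelled knockout libraries all lay inside the WT range. The log2 fold change of -0.10 (SE 0.14, 95% interval -0.41 to 0.22, edgeR adjusted p = 0.689) thus came with an interval that holds both reductions and increases. It became 0.08 without WT library 1 and 0.31 with library totals (edgeR adjusted p = 0.0893), so no direction can be given. Melanocyte markers, of which Tyrp1 was at 0 in every library, summed to 0.925 to 2.06 CPM in WT and 1.31 to 2.19 CPM in the labelled knockouts. Of the 4 tested, Tyr was higher, with 0 counts in every WT library and 31 to 84 counts in the labelled knockouts. The part of melanocytes in the Gpnmb values was not tested.

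Fabp5, the epidermal fatty acid-binding protein of macrophages, endothelium and adipose tissue, lies at chr3:10012548-10016607 on the plus strand. It measured 16.2, 17.4 and 17.5 CPM in WT and 19.3, 19.6 and 21.2 CPM in the labelled knockouts. Every labelled knockout library was above every WT library, by a small margin. The log2 fold change of 0.23 (SE 0.08, 95% interval 0.05 to 0.42) had an edgeR p of 0.0168 and an adjusted p of 0.0632. It passed with library totals, at 0.64 (edgeR adjusted p = 7.3e-05), and with DESeq2 (adjusted p = 0.0227). Fabp5 shares 41.3% of its transcript sequence, at 97% identity or more, with the predicted genes Gm14328 and Gm6166, which held at most 16 counts in any library. Endothelial markers summed to 441 to 458 CPM in WT and 744 to 764 CPM in the labelled knockouts, and white adipocyte markers to 600 to 632 and 814 to 830 CPM. The part of those cells in the Fabp5 values was not tested.

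Plac8, a small cysteine-rich protein abundant in monocytes, lies at chr5:100553725-100572245 on the minus strand. It measured 8.61, 12.2 and 8.65 CPM in WT and 5.09, 5.06 and 4.91 CPM in the labelled knockouts. WT library 2 was higher than the other WT libraries, and the labelled knockouts were uniform and lower than all of WT. The reduction was 1.95-fold, or -0.97 on the log2 scale with an SE of 0.16 (edgeR adjusted p = 0.00123). It was -0.78 without WT library 2 and remained called (edgeR adjusted p = 0.00407).

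**Figure D1:**
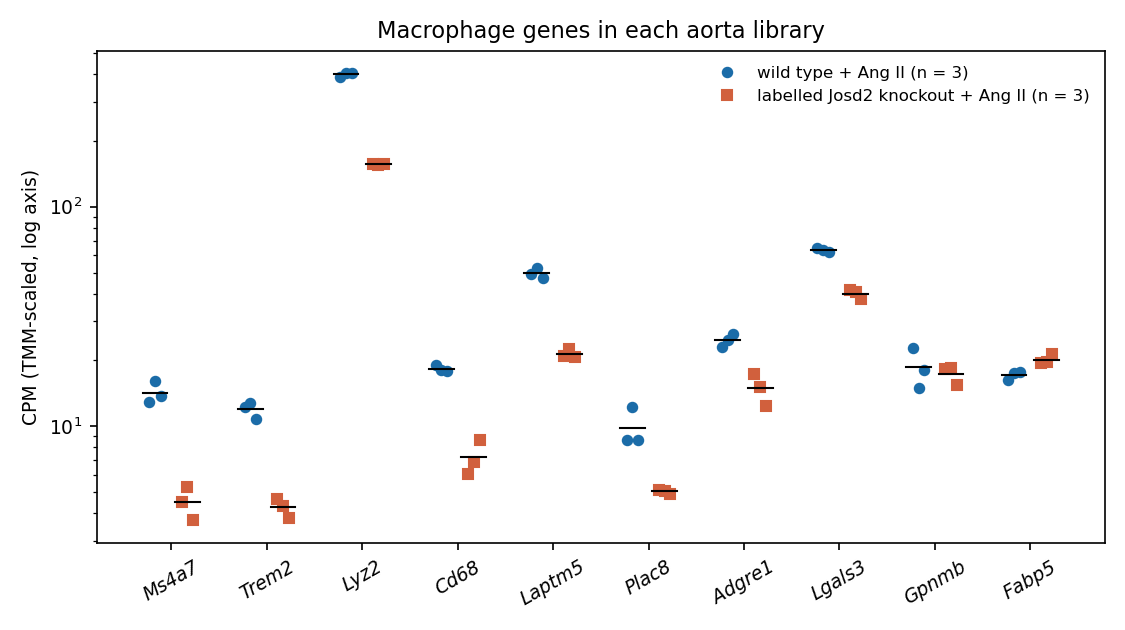
TMM-scaled CPM on a log axis of the 10 macrophage genes in each of the 6 aorta libraries; points are libraries, circles WT and squares labelled knockout, and horizontal bars are group means (n = 3). For Ms4a7 through Lgals3 the groups do not overlap and the squares are lower, the Gpnmb squares lie within the WT range of 14.8 to 22.6 CPM, and the Fabp5 squares are all above the circles.

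**Figure D2:**
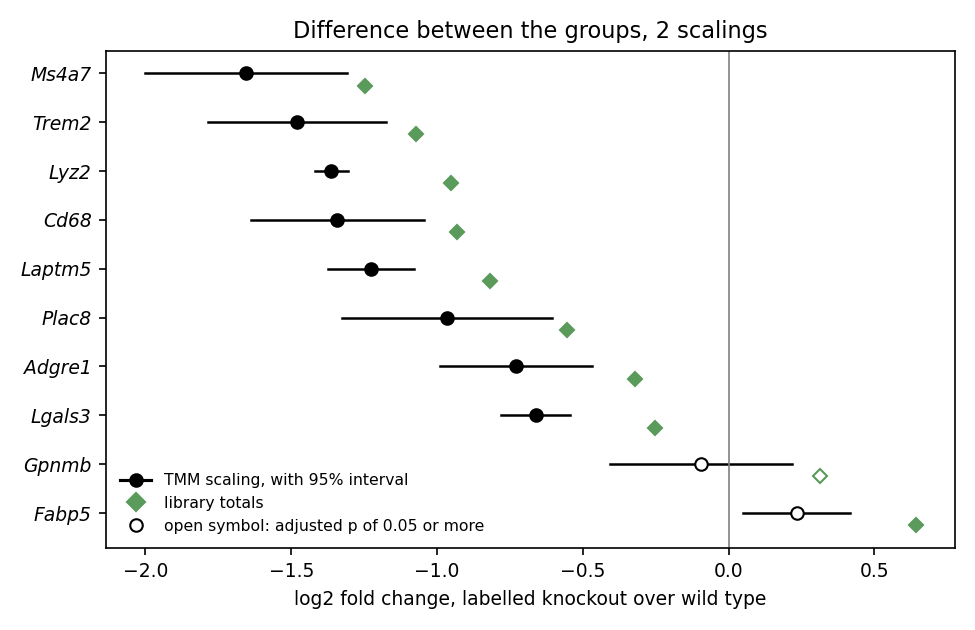
Log2 fold change, labelled knockout over WT, of the same genes with TMM scaling (black, with 95% intervals from edgeR) and with library totals (green diamonds); filled symbols have an adjusted p under 0.05. Library totals shift every gene upward by 0.41, and 8 genes stay called lower while Fabp5 becomes called higher at 0.64.

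Ordered by transcript level per length in WT, the genes ran Lyz2, Lgals3 (25.03 ± 0.57 FPKM), Cd68, Laptm5, Adgre1 (5.59 ± 0.38 FPKM), Plac8 (4.51 ± 0.94 FPKM), Fabp5 (3.51 ± 0.16 FPKM), Ms4a7 (2.33 ± 0.27 FPKM), Gpnmb (2.08 ± 0.44 FPKM) and Trem2 (mean ± SD, n = 3). The neighbours Adgre1 and Plac8, Ms4a7 and Gpnmb, and Gpnmb and Trem2 overlapped in their single libraries. In the labelled knockouts the order was Lyz2, Lgals3 (21.0 ± 0.99 FPKM), Cd68, Fabp5 (5.47 ± 0.29 FPKM), Laptm5, Adgre1 (4.48 ± 0.74 FPKM), Plac8 (3.07 ± 0.06 FPKM), Gpnmb (2.59 ± 0.25 FPKM), Ms4a7 (0.98 ± 0.17 FPKM) and Trem2. There Cd68, Fabp5 and Laptm5 overlapped, as did Ms4a7 and Trem2. Fabp5 thus moved from the seventh place to the fourth, and Gpnmb passed Ms4a7.

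Set against all 20132 tested genes, the log2 fold change of Ms4a7 stood at percentile 3.61, Trem2 at 4.67, Lyz2 at 5.56, Cd68 at 5.73 and Laptm5 at 6.77, counted from the lowest. Plac8 stood at percentile 9.77, Adgre1 at 13.4 and Lgals3 at 14.7. Gpnmb at 41.3 and Fabp5 at 71.6 were in the middle of the distribution.

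Pan-macrophage genes, expressed by macrophages of any origin, were measured as a yardstick. All 22 were lower with TMM scaling (median log2 fold change -1.0), and 16 with library totals (median -0.59). Mpeg1, which encodes the pore-forming perforin-2, went from 48.3 ± 1.4 to 17.9 ± 0.2 CPM (log2 fold change -1.43). The complement genes C1qb and C1qa fell from 99.1 ± 2.1 to 44.8 ± 2.4 CPM and from 78.1 ± 5.2 to 42.3 ± 0.3 CPM, and the cathepsin gene Ctss from 54.7 ± 3.0 to 26.9 ± 1.6 CPM (SD, n = 3). The growth factor receptor gene Csf1r fell from 63.9 ± 0.9 to 46.6 ± 2.6 CPM (log2 fold change -0.46), and was at -0.05 with library totals.

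The mean log2 CPM of these 22 genes served as an index of each library, since a ratio inside a library does not change with its scaling. The index was 4.61 ± 0.05 in WT and 3.67 ± 0.02 in the labelled knockouts (SD, n = 3), lower by 0.94. Relative to it, the log2 ratio of labelled knockout to WT was -0.73 for Ms4a7, -0.55 for Trem2, -0.43 for Lyz2, -0.42 for Cd68 and -0.29 for Laptm5. It was 0.27 for Lgals3, 0.86 for Gpnmb and 1.17 for Fabp5. In these 8 genes the groups did not overlap. The share of all tested genes with such separation was not counted, so the separation is not read as particular to these genes. Since the index itself was lower by 0.94, a gene unchanged by TMM would have a ratio near 0.94, close to that of Gpnmb. For each of the 8 the exact two-sided permutation test gave p = 0.1, the smallest value that 3 against 3 libraries allow. None of the 10 ratios could thus pass. Plac8 was at -0.01 with overlapping groups ( exact permutation p = 1.0), and Adgre1 was at 0.20 with overlapping groups (exact permutation p = 0.4). With an index of Ptprc and Csf1r alone, Lgals3 was at -0.05 and Adgre1 at -0.12, so the direction of those ratios depends on the reference genes, while Gpnmb at 0.54 and Fabp5 at 0.85 stayed above.

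**Figure D3:**
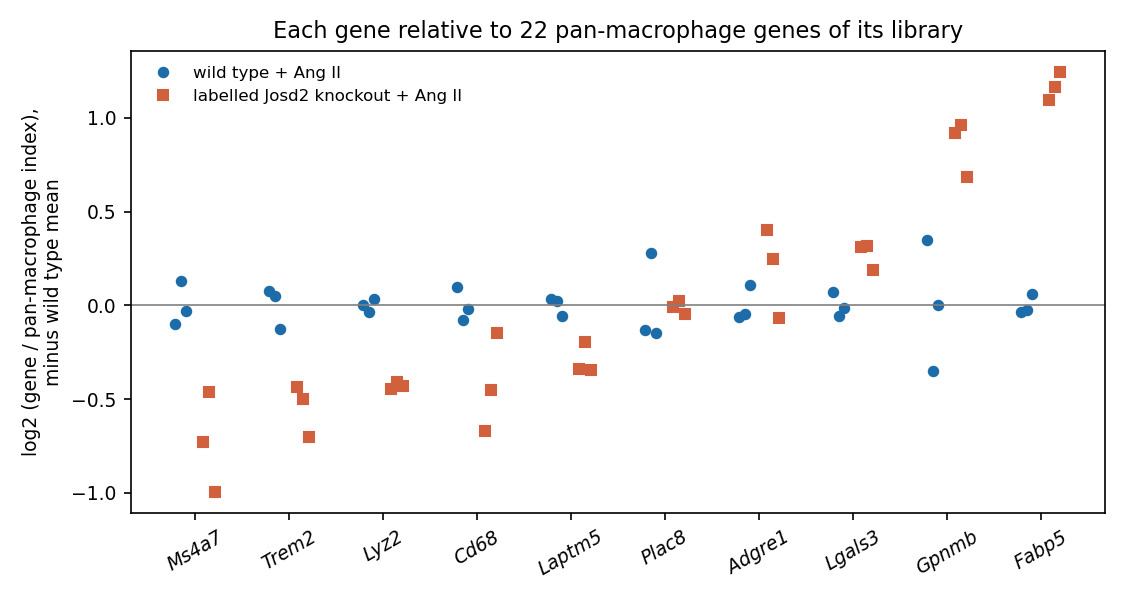
Log2 ratio of each gene to the mean of the 22 pan-macrophage genes of its own library, with the WT mean of each gene set to 0; circles are WT and squares labelled knockout libraries (n = 3 each). Ms4a7, Trem2, Lyz2, Cd68 and Laptm5 lie under 0 in every labelled knockout library, Plac8 and Adgre1 overlap WT, and Lgals3, Gpnmb and Fabp5 lie above.

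Further genes of the lipid-associated programme were divided. Of 28 tested companions, 13 were lower, 6 higher and 9 did not pass (median log2 fold change -0.13), and with library totals 4 were lower and 19 higher (median 0.28). Spp1, which encodes the secreted phosphoprotein osteopontin, fell from 355 ± 9.3 to 14.1 ± 1.3 CPM (log2 fold change -4.65, edgeR adjusted p = 7.6e-13). The WT level of Spp1 was far above the 11.9 CPM of Trem2, and which cells of the aorta made it was not tested. The macrophage elastase gene Mmp12 fell from 10.4 ± 1.9 to 0.68 ± 0.21 CPM (log2 fold change -3.93, edgeR adjusted p = 8.3e-07). The fatty acid uptake receptor gene Cd36 rose from 173 ± 5.2 to 245 ± 5.5 CPM, and Fabp4, which lies in the same gene family as Fabp5 and is abundant in adipocytes and endothelium, from 483 ± 17 to 597 ± 2.3 CPM (SD, n = 3). The protease gene Ctsd, with the highest level per length of the list at 257 FPKM in WT, was lower by TMM (log2 fold change -0.14) and higher by library totals (0.27). Spp1, Mmp12, Cd36 and Fabp4 kept their direction with library totals.

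TREM2 passes its signal through Tyrobp to the kinase Syk and the phospholipase Plcg2. A list of 12 tested genes held this route and genes set beside it, among them Clec7a and Apoe. Of the 12, 7 were lower, 1 higher and 4 did not pass (median log2 fold change -0.76). With library totals 4 were lower and 3 higher. Tyrobp was also counted with the pan-macrophage genes, and Clec7a and Apoe with the companions. Tyrobp itself fell from 21.6 ± 2.2 to 9.61 ± 1.3 CPM (log2 fold change -1.17 with SE 0.12, edgeR adjusted p = 3.6e-05). The lectin receptor gene Clec7a fell from 5.73 ± 1.2 to 1.81 ± 0.30 CPM, the phosphatase gene Ptpn6 from 11.9 ± 0.48 to 6.61 ± 0.63 CPM and Plcg2 from 10.0 ± 1.2 to 5.80 ± 0.17 CPM (SD, n = 3). These 4 stayed lower with library totals. The single gene that was higher was Apoe, a lipoprotein ligand of TREM2 made by many cell types (log2 fold change 0.10).

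Monocyte genes were measured because recruited macrophages come from blood monocytes. Of 20 tested, 8 were lower, 2 higher and 10 did not pass (median log2 fold change -0.80), with 7 lower and 4 higher by library totals. Napsa, among the 8, is also a lung epithelial marker. Ccr2, the receptor through which classical monocytes leave the marrow and enter tissue, fell from 21.1 ± 2.5 to 6.45 ± 1.0 CPM (log2 fold change -1.71, SE 0.14, edgeR adjusted p = 5.1e-06). Nr4a1, a nuclear receptor of patrolling monocytes that is also an early response gene of many cells, fell from 181 ± 6.6 to 103 ± 3.1 CPM. Hp, which encodes haptoglobin, rose from 64.03 ± 3.4 to 146 ± 2.4 CPM, and Ace, an enzyme abundant in endothelium, from 399 ± 4.6 to 530 ± 6.2 CPM (SD, n = 3). The calcium-binding protein gene S100a4, with the highest level per length of the list, was lower by TMM (log2 fold change -0.22) and higher by library totals (0.19).

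Signals that draw monocytes to the wall were lower for the most part. Of 15 attractant, adhesion and receptor genes, 12 were lower, 2 (Icam1 and Sele) higher and 1 (Ccl5) did not pass (median log2 fold change -1.05), with 7 lower and 3 higher by library totals. Vcam1, the adhesion molecule that holds monocytes on activated endothelium and is also made by smooth muscle, fell from 208 ± 4.8 to 73.9 ± 3.6 CPM (log2 fold change -1.49, edgeR adjusted p = 6.4e-10). The CCR2 ligand genes Ccl2 and Ccl7 fell from 5.60 ± 0.36 to 1.32 ± 0.46 CPM and from 6.76 ± 0.15 to 2.34 ± 0.53 CPM (SD, n = 3). Cxcl12 was lower by TMM (log2 fold change -0.32) and higher by library totals (0.09).

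Genes of resident macrophages were counted on their own. Of 18 tested, 2 (Pf4 and Lyve1) were lower, 5 higher and 11 did not pass (median log2 fold change -0.15), and with library totals none was lower and 10 were higher, beside 46.8% of all tested genes. The scavenger receptor gene Stab1 rose from 72.9 ± 5.1 to 116 ± 7.4 CPM and the haemoglobin scavenger receptor gene Cd163 from 21.0 ± 0.3 to 33.05 ± 2.7 CPM (log2 fold changes 0.67 and 0.66). Gas6, a ligand of TAM receptors, rose from 321 ± 7.9 to 509 ± 3.4 CPM, and Selenop, a selenium carrier, from 419 ± 10 to 478 ± 12 CPM (SD, n = 3). Stab1, Gas6 and Selenop are also made by endothelial or stromal cells, and the endothelial marker sums given with Fabp5 were higher in the labelled knockouts as well. The part of those cells in the values was not tested, and no difference between the resident and pan-macrophage lists was tested.

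Growth factors and transcription factors of macrophages gave calls that depend on the scaling. Of 20 tested, 3 (Csf1r, Csf2ra and Spi1) were lower, 3 (Csf2rb, Pparg and Bhlhe41) higher and 14 did not pass (median log2 fold change -0.04), and with library totals none was lower and 14 were higher (median 0.37), while Csf2 was at 0 counts in every library. Spi1, which encodes PU.1, went from 10.1 ± 0.64 to 6.07 ± 0.79 CPM (log2 fold change -0.73, edgeR adjusted p = 0.00278), a call that library totals did not give (-0.32, edgeR adjusted p = 0.079). Csf2rb, the shared chain of the GM-CSF, IL-3 and IL-5 receptors, rose from 13.7 ± 0.76 to 23.5 ± 0.86 CPM and the transcription factor gene Bhlhe41 from 22 ± 0.80 to 30.3 ± 0.58 CPM (SD, n = 3). Chosen after their values were seen, Csf1, the ligand of the receptor encoded by Csf1r, was at 61.4 ± 3.2 and 60.1 ± 0.5 CPM, and Mitf, a regulator of Gpnmb, at 13.2 ± 1.3 and 13.2 ± 1.7 CPM (SD, n = 3). With library totals both Csf1 and Mitf were called higher (log2 fold changes 0.38 and 0.41).

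Lysosomal genes of all cells were compared with Cd68, Laptm5 and Lyz2. Of 25 tested, 12 were lower, 2 (Atp6ap1 and Mcoln1) higher and 11 did not pass, and the median log2 fold change of -0.13 was small beside the -1.34, -1.23 and -1.36 of those genes. By library totals none of the 25 was lower and 20 were higher, beside 3.81% and 46.8% of all tested genes. Hexa, a hexosaminidase subunit gene, went from 163 ± 6.5 to 122 ± 1.8 CPM (SD, n = 3, log2 fold change -0.41 by TMM and -0.00 by library totals).

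**Figure D4:**
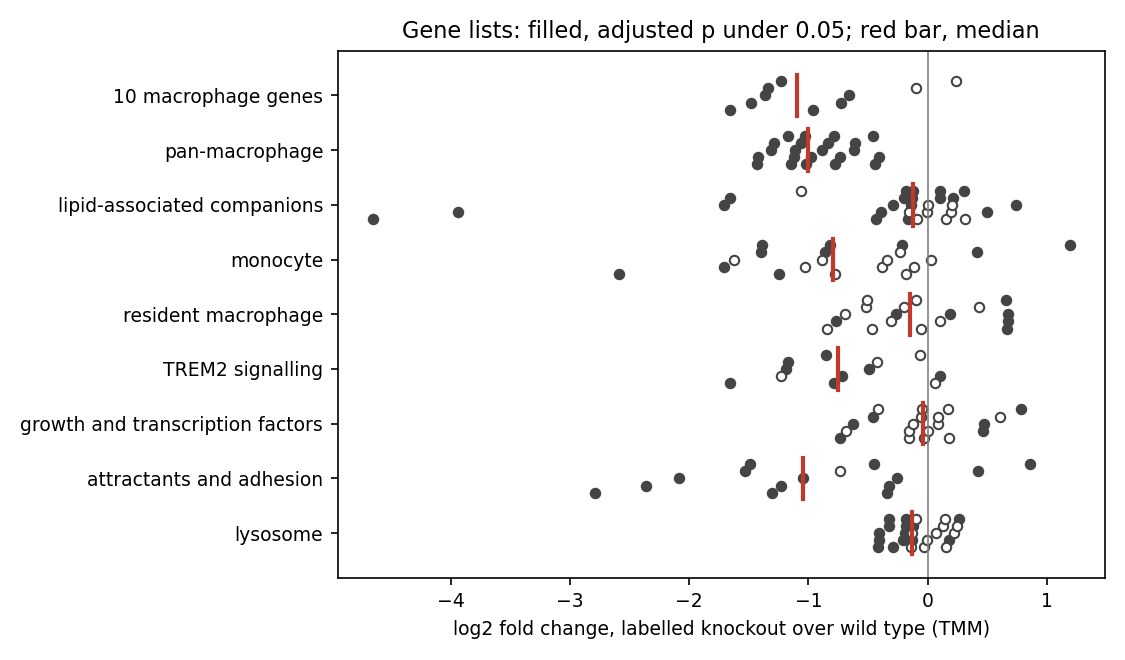
Log2 fold change, labelled knockout over WT with TMM scaling, of each tested gene in 9 lists; filled points have an edgeR adjusted p under 0.05 and red bars are list medians. The 10 macrophage genes (median -1.10) and the pan-macrophage genes (median -1.0) lie left of 0 for the most part. The companion, resident and lysosome lists centre near 0 with TMM, and with library totals their medians were 0.28, 0.26 and 0.28. The companion and lysosome lists share genes.

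Genes related to the 10 by family, or in cases such as Plac9a and Lgals3bp by name only, gave a mixed picture. Of 27 tested, 6 were lower, 2 (Fabp4 and Laptm4b) higher and 19 did not pass, with 4 lower and 10 higher by library totals. Lyz1, the lysozyme gene next to Lyz2, fell from 5.77 ± 0.87 to 2.003 ± 0.46 CPM (log2 fold change -1.53, edgeR adjusted p = 0.000485). No stretch of 100 bases with 97% identity was shared between the transcripts of Lyz2 and any other gene. Beside Ms4a7, the family members Ms4a6c and Ms4a6d fell from 12.7 ± 0.78 to 6.97 ± 0.99 CPM and from 9.44 ± 0.55 to 5.04 ± 0.73 CPM (SD, n = 3), and the B cell member Ms4a1 was at 1.55 ± 1.1 and 1.10 ± 0.07 CPM with no call. Adgre5, the leukocyte relative of Adgre1, was at 122 ± 5.3 and 120 ± 4.5 CPM (log2 fold change -0.03). Laptm4a and the broadly expressed lysosomal relatives of Cd68, Lamp1 and Lamp2, had log2 fold changes of 0.02, 0.07 and -0.03, none of which passed, and with library totals these 3 and Adgre5 were called higher. Lgals1, a galectin abundant in smooth muscle and fibroblasts, fell from 807 ± 11 to 581 ± 7.6 CPM (SD, n = 3, log2 fold change -0.47 by TMM and -0.06 by library totals). Plac9a, which shares part of its name with Plac8, spread widely at 92.0 ± 22 and 40.3 ± 22 CPM. Trem1 was near the detection limit at 0.62 ± 0.58 and 0.19 ± 0.19 CPM.

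Over the 6 libraries, the genes whose centred log2 CPM lay nearest to the median profile of the 10 were, among 10332 candidates, Mmp14 (root mean square distance 0.026), Lce1i (0.050), mt-Atp6 (0.063), mt-Nd2 (0.065) and mt-Nd1 (0.065). Their log2 fold changes ran from -1.05 to -1.10. Of these 5, 3 are mitochondrial transcripts, and the share of mitochondrial counts moved with the groups.

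The 5 defining macrophage markers Adgre1, Csf1r, Cd68, Fcgr1 and Mertk were above 0 in every library and all lower in the labelled knockouts, with 3 of 5 lower by library totals. Their summed level was 177 to 182 CPM in WT and 119 to 124 CPM in the labelled knockouts. Adgre1 and Cd68 are among the genes described here, and Csf1r, Fcgr1 and Mertk are pan-macrophage genes already counted above. The calls of these 5 markers thus repeat earlier ones and are no separate check. Smooth muscle markers, at 20383 to 20556 and 19835 to 19953 CPM, were abundant in all 6 libraries. Neutrophils also express Lyz2. None of their 8 tested markers passed with TMM and 1 (S100a9) was higher with library totals, their sums were 5.28 to 7.18 CPM in WT and 8.15 to 9.27 CPM in the labelled knockouts, and Ly6g was at 0. Of 9 dendritic cell markers 1 (Cd209a) was lower, and of 7 B cell and 5 mast cell markers none passed. Of 7 T cell markers, 2 (Cd8a and Lck) were higher. Lung epithelial markers summed to 17.1 to 21.6 CPM in WT and 1.86 to 3.19 CPM in labelled knockout libraries, and 6 of 7 were lower. Alveolar macrophage markers, which would accompany lung tissue, summed to 14.7 to 15.9 and 15.6 to 15.7 CPM with none of 7 passing, and Siglecf held at most 8 counts in a library. Most of each sum was Car4, at 10.5 ± 0.49 CPM in WT and 12.3 ± 0.17 CPM in the labelled knockouts (SD, n = 3). The flat sums thus say little about the other markers. The median log2 fold change of the 7 was -0.31 by TMM and 0.10 by library totals. Fibroblast markers, whose cells also express Lgals3, summed to 10222 to 10365 and 6282 to 6303 CPM, with 6 of 7 lower and 1 (Pdgfra) higher by TMM, and 2 lower and 4 higher by library totals. The part of neutrophil, lung or fibroblast RNA in the values of these genes was not tested.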

How the data were processed

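Poly(A)-selected RNA was sequenced as paired-end libraries on an Illumina NovaSeq, per the labels' protocols. Those protocols speak of adipose RNA, while the tissue label is aorta. Per the submitters' processing notes, Bowtie 0.12.2, HISAT2 2.0 and build mm8 were used, with no role named. Not given in the sources used here are counting tool, annotation and strand setting. Gene coordinates are those of the deposited table, 86.0% of which are identical to GENCODE M21 on GRCm38. No mm8 coordinates were used.

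Per the file headers, the table deposited by the authors gives each gene's counts and FPKM. Low counts have local peaks at 4, 8 and 12 (1091 to 1137 genes per library at 4, against 792 to 867 at 3 and 472 to 519 at 5). A read pair may thus be worth about 4 counts, which no source says, and a printed count is no number of read pairs, so the deposited whole numbers were treated as estimated counts; rounding changed 0 of them. FPKM were scaled by the authors. No depth in read pairs can be stated, so intervals come from the fitted model only.

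Counts were tested with edgeR 4.0.16 in R 4.3.3 (filterByExpr, TMM, quasi-likelihood, Benjamini-Hochberg over 20132 genes, threshold 0.05). Each CPM is a count over the TMM-scaled total. The steps were tested on simulated data. They recovered 54.4% of simulated 1.5-fold changes, 85.9% of 2-fold changes and 98.4% of 4-fold changes. A gene that did not pass may thus still differ between the groups. Alternatives used DESeq2 1.42.0, limma 3.58.1, other scalings and filters, a replicate block and each library left out.

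The members, lists and tests were chosen with earlier results of these data known. Named in each list were up to 4 genes with the smallest p and the one with the highest FPKM, besides the 10 genes, Josd2 and relatives by family or name. Csf1, Mitf, Siglecf, Car4, Ly6g, Napsa and genes named only to spell out a small count were chosen after values were seen. Transcripts were compared by BLAST+ 2.17.0, and no exon of the 10 genes overlapped another gene.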

Additional observations from a re-analysis of the deposited data

How the results depend on the processing

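The 8 reductions kept their direction under all 16 alternatives, with log2 fold changes of -1.38 to -0.95 for Lyz2, -1.54 to -0.59 for Trem2, -1.49 to -0.84 for Cd68, -1.78 to -0.75 for Ms4a7, -1.26 to -0.72 for Laptm5, -1.05 to -0.43 for Plac8, -0.85 to -0.27 for Adgre1 and -0.69 to -0.24 for Lgals3. All stayed called but Adgre1, lost with limma on FPKM plus 1 or 0.1 (adjusted p = 0.0639 and 0.0620). Fabp5 was called higher, making 1 gene, with DESeq2, library totals, totals without mitochondrial genes (edgeR adjusted p = 0.00429) and both limma fits. Gpnmb went to 0.31 with library totals, 0.060 with totals without mitochondrial genes, 0.23 and 0.32 with limma, and from -0.23 to 0.078 with single libraries left out. Genes called, 4981 here, numbered 10193 with library totals and 10314 and 10196 with limma. Pan-macrophage genes called lower were 14 with either limma fit. Lipid-associated companions called lower were 4 with library totals and both limma fits, and 7 with totals without mitochondrial genes. Resident macrophage genes called lower were 7 with DESeq2, 5 with a mean FPKM of at least 1 or counts divided by 4, 1 with no filter, totals without mitochondrial genes or the replicate block, 0 with library totals and limma, and 1 to 2 with single libraries left out. With the Ptprc and Csf1r index, the log2 ratios were -0.75 for Lyz2, -0.86 for Trem2, 0.54 for Gpnmb, -0.74 for Cd68, -0.045 for Lgals3, 0.85 for Fabp5, -1.05 for Ms4a7, -0.12 for Adgre1, -0.61 for Laptm5 and -0.33 for Plac8. The limma fits changed scaling, transformation and test together, and the cause of these differences was not tested. The replicate block called 4560 genes and the same number, 8, of the 10 as lower; correlations of same-numbered libraries (-0.01, -0.03 and -0.02) gave no pairing, and 0 of 6 libraries correlated best with their own number. Genes called with single libraries left out numbered 3756 to 4458.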
